A study of Homo sapiens with 72 samples.

Results

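NFE2L2, the gene for the transcription factor NRF2, and 8 genes known as its direct targets (NQO1, HMOX1, GCLM, GCLC, TXNRD1, SRXN1, SLC7A11 and OSGIN1) were followed across all compounds and doses. They were chosen by name as members of the NRF2 antioxidant program, with no measured value in the rule, and were matched by Ensembl identifier. Earlier results of these data were known when they were chosen. All 9 of them were among the 60371 genes listed for every well, and all 9 passed the filter on low counts in each comparison. Population RNA-seq libraries from 72 wells of U2OS, a human osteosarcoma cell line, were used. Cells had been exposed for 12 h to 1 of 6 compounds at 100 nM, 1000 nM or 10000 nM, in 3 wells per compound and dose, and 18 wells received DMSO, the solvent, at a labelled dose of 0 nM. The compounds were triptolide, which blocks transcription initiation, homoharringtonine, which blocks elongation of new proteins on the ribosome, pyrazolanthrone, a JNK kinase inhibitor, nilotinib, a BCR-ABL kinase inhibitor, miglitol, an alpha-glucosidase inhibitor, and MK-2206, an AKT inhibitor. U2OS is 1 line, so every group shared the same genotype, and the sources used here do not say that wells of a group came from separate cultures, so the p-values measure only the spread between these wells.

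NRF2 is held in the cytoplasm by KEAP1, which delivers it to an E3 ligase for continuous degradation. Electrophiles and oxidants modify KEAP1, and NRF2 then accumulates, pairs with a small MAF protein and binds antioxidant response elements, while BACH1 competes for the same sites. The targets followed here make glutathione and import its precursor (GCLC, GCLM, SLC7A11), reduce thioredoxin and peroxiredoxins (TXNRD1, SRXN1), detoxify quinones and heme (NQO1, HMOX1), or restrain growth (OSGIN1).

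In GRCh38, from GENCODE release 44, NFE2L2 lies on the minus strand at chr2:177218667-177392756, and each of the 9 members is annotated as a protein-coding gene. NQO1 lies at chr16:69706996-69726668 on the minus strand and HMOX1 at chr22:35380361-35394214 on the plus strand. The glutathione genes GCLM, GCLC and SLC7A11 lie on the minus strand at chr1:93885199-93909456, chr6:53497341-53616970 and chr4:138164097-138242349. TXNRD1 lies at chr12:104215779-104350307 on the plus strand, SRXN1 at chr20:646615-653200 on the minus strand and OSGIN1 at chr16:83931311-83966332 on the plus strand. SRXN1 shares 90.7% of its exon bases with the readthrough gene ENSG00000270299 on the same strand. NFE2L2 shares 13.6% of its exon bases with ENSG00000213963 on the same strand. On the opposite strand, NFE2L2 shares 23.4% with HNRNPA3 and NQO1 shares 19.4% with ENSG00000261602. Whether reads were counted by strand is not given in the sources used here.

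The core letters of an antioxidant response element, TGACNNNGC, were searched on both strands in RefSeq promoters of GRCh38.p14, each from 250 bases before to 50 bases after a start site. They were found in 13.3% of 35116 promoters. Entries existed for 7 of the 9 members, with 9 promoters in all, and HMOX1 and SLC7A11 had none. GCLM and both promoters of TXNRD1 held the letters, at positions -34, -99 and -102 from the start, and the first TXNRD1 promoter held them again at -8. OSGIN1 held the AP-1 letters TGAGTCA, present in 4.95% of all promoters. Their other strand, TGACTCA, can also form the start of the element, but here cg follows in place of GC. The OSGIN1 promoter thus did not hold TGACNNNGC. The match farthest from the start in each of these promoters is shown with 20 flanking bases on each side. Each stretch is on the gene's strand with the match in capitals, for the members whose promoters carry either set of letters. A match describes the sequence and is not evidence of binding.
GCLM, chr1:93909436-93909484, minus strand: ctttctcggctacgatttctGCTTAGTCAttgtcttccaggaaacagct
TXNRD1, first promoter, chr12:104215660-104215708, plus strand: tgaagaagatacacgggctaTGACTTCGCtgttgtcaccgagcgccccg
TXNRD1, second promoter, chr12:104286910-104286958, plus strand: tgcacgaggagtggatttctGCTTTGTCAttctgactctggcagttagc
OSGIN1, chr16:83953123-83953169, plus strand: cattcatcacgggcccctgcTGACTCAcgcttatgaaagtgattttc

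Depth per well, as the sum of expected counts, ranged from 70767 to 68296309 with a median of 38.4 mil. Under 10 mil were 3 libraries: the second replicate of triptolide 100 nM (70767 counts), the tenth DMSO replicate (460014) and the first replicate of triptolide 1000 nM (9628355). In DMSO wells the osteoblast-lineage and mesenchymal markers SPARC, COL1A1 and VIM had mean TPM of 2144, 456 and 1842. CDH2 was at 72.1 TPM, RUNX2 at 3.91 and ALPL at 4.08, while BGLAP (0.461), COL1A2 (0.0889), SP7 (0.0122) and IBSP (0.00444) were near 0. The epithelial genes EPCAM and CDH1 were at 2.35 and 0.442 TPM and the leukocyte genes PTPRC and CD3E at 0.194 and 0.00333 TPM. Libraries also differed in GC slope, the change in log2(TPM + 1) per 10 percentage points of transcript GC, from -0.165 to 0.390 among DMSO wells.

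Levels are given as CPM, expected counts per mil counts of a library with library sizes scaled by TMM over all 72 libraries, which compare wells for 1 gene, and as TPM, which also divides by length, where genes are compared. In DMSO wells NQO1, a quinone reductase, had the highest mean TPM of the members at 307 ± 50.7 (SD, n = 18). TXNRD1, thioredoxin reductase, followed at 234 ± 19.7 and SRXN1, sulfiredoxin, at 180 ± 21.1. GCLC, the catalytic subunit of glutamate-cysteine ligase, stood at 86.1 ± 30.8 TPM. These 4 members led by their means, and the ranges over wells overlapped for each pair of neighbours in this order. For SRXN1 and GCLC the overlap came from the DMSO library of 460014 counts, without which GCLC reached at most 117.6 TPM and SRXN1 was at least 157.9. NFE2L2 at 40.4 ± 10.0 TPM, OSGIN1 at 40.0 ± 7.52 and HMOX1 at 39.7 ± 5.12 differed by less than their SDs. GCLM, the modifier subunit of the ligase, at 19.7 ± 11.9 TPM, and SLC7A11, the cystine importer, at 18.2 ± 5.77, were lowest and also within their SDs of each other.

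The DMSO wells were not uniform for these genes. NFE2L2 ranged from 31.5 to 80.8 CPM among them with a median of 49.2, and SLC7A11 from 76.3 to 186 CPM with a median of 108. HMOX1 was tighter, from 33.1 to 55.6 CPM with a median of 42.5. Coefficients of variation were 29.5% for NFE2L2, 26.3% for SLC7A11 and 13.1% for HMOX1. The level followed the GC slope of the library for most members over the 17 DMSO wells above 10 mil. The slope is itself fitted over 14700 genes, so genes of low or high GC content tend to follow it. The share of all genes that do was not computed, so the values below describe the libraries and are not given as a trait of the members. For NFE2L2, Pearson's r was -0.974 (permutation p = 1e-05, adjusted over the 9 members 1.5e-05) and Spearman's rho -0.988 (permutation p = 1e-05, adjusted 4.5e-05), and r was -0.965 without the 2 wells farthest from the median slope. The value 1e-05 is the smallest p that 100000 resamples can give. OSGIN1 went the other way, with r = 0.939 (permutation p = 1e-05, adjusted 1.5e-05), rho = 0.848 (permutation p = 7e-05, adjusted 9e-05) and r = 0.899 without those 2 wells. SRXN1 showed no such relation at this size, with r = -0.249 (permutation p = 0.33, adjusted 0.33), rho = -0.176 (permutation p = 0.5, adjusted 0.5) and r = -0.371 without the 2 wells. Among the other members r was -0.940 for GCLC, -0.923 for SLC7A11, -0.904 for TXNRD1, -0.875 for GCLM, 0.834 for HMOX1 and -0.502 for NQO1, and all 6 had adjusted permutation p-values of at most 0.046. Transcript GC content was 35.9% for SLC7A11 and 41.5% for NFE2L2 against 57.6% for HMOX1 and 61.4% for OSGIN1. The 3 homoharringtonine wells at 10000 nM had slopes of -0.316, -0.224 and -0.220, below every DMSO well, so at that dose the slope and the compound cannot be told apart, and values with the slope as a covariate are given where that ended a call.

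**Figure D1:**
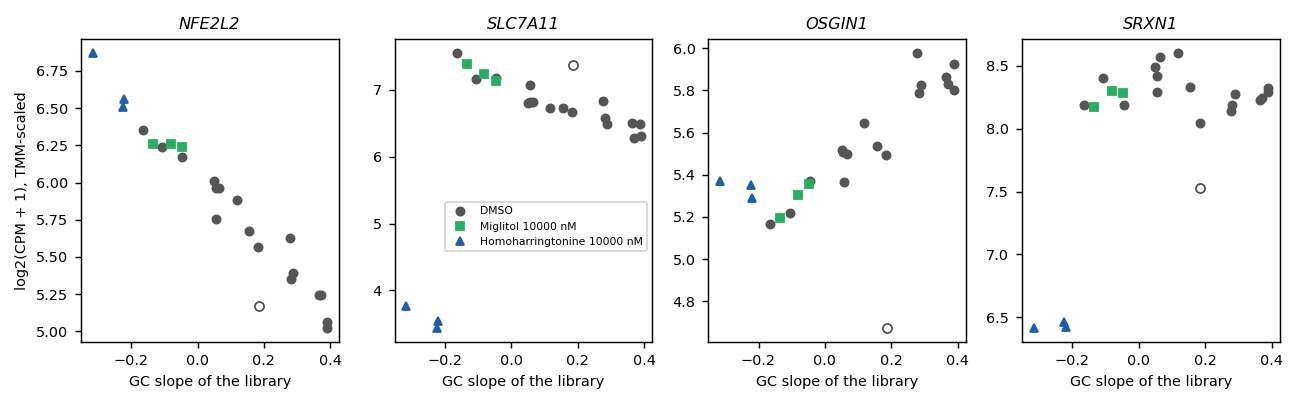
NRF2 antioxidant genes against the GC slope of the library: the x axis is the change in log2(TPM + 1) per 10 percentage points of transcript GC and the y axis log2(CPM + 1), with grey circles for DMSO wells (open for the well of 460014 counts), green squares for miglitol and blue triangles for homoharringtonine, both at 10000 nM. NFE2L2 and SLC7A11 fall with the slope in DMSO wells, OSGIN1 rises and SRXN1 has no clear slope, while the homoharringtonine wells lie left of all DMSO wells.

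Triptolide lowered 5 of the 9 members at 1000 nM and 10000 nM: NFE2L2 itself, HMOX1, GCLC, SRXN1 and OSGIN1. At 100 nM 4 members fell, all of these but NFE2L2. By TMM-scaled CPM, TXNRD1 and SLC7A11 stayed within the range of the DMSO wells at the highest dose, and NQO1 was above it. By TPM, TXNRD1 (131.6 to 161.0) and SLC7A11 (8.23 to 10.01) lay below their lowest DMSO wells of 202.3 and 11.29. NQO1, at 280.3 to 326.4 TPM, was inside its DMSO range of 173.2 to 382.8. A call required an adjusted p under 0.05 (edgeR's quasi-likelihood test, Benjamini-Hochberg over all genes tested) plus a log2(Fold Change) past 1 in either direction. By that rule 20.9%, 30.4% and 30.2% of all genes tested were lower at 100, 1000 and 10000 nM, so 4, 5 and 5 of 9 members stood above that background. The median log2(Fold Change) of the members was -0.90, -1.93 and -1.77 at the rising doses, against -0.16, -0.21 and -0.17 over all genes tested. With no limit on the fold 8, 6 and 7 members passed, beside 56.8%, 67.4% and 71.8% of all genes.

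**Figure D2:**
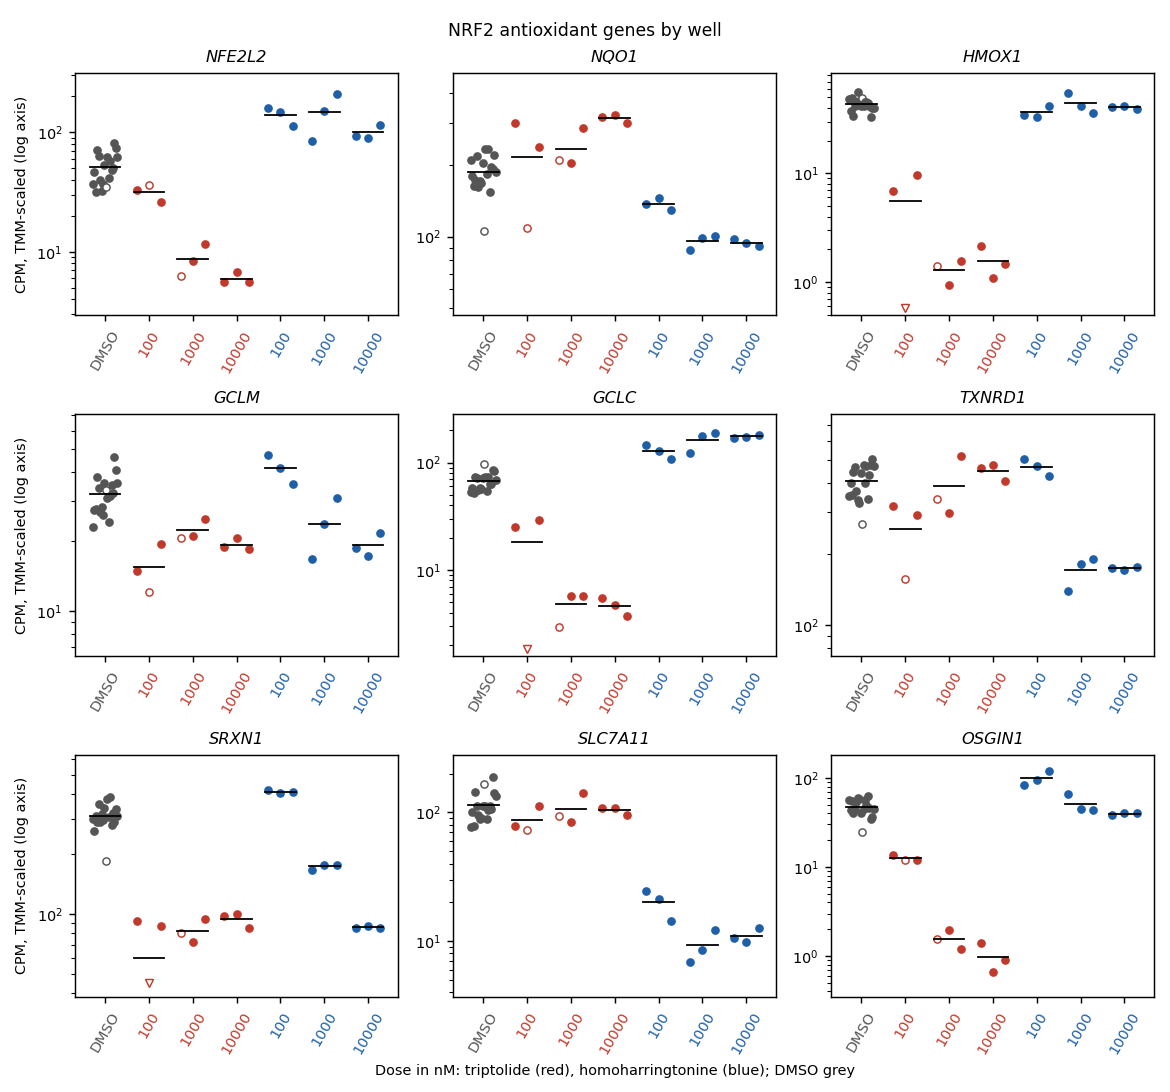
Levels of the 9 NRF2 antioxidant genes in single wells, as TMM-scaled CPM on log axes, for DMSO (grey), triptolide (red) and homoharringtonine (blue) at 100, 1000 and 10000 nM, with horizontal bars at group means, open symbols for libraries under 10 mil and triangles at the lower edge for wells with no count. OSGIN1, HMOX1, GCLC and NFE2L2 drop far below DMSO with triptolide, whereas SLC7A11 drops with homoharringtonine.

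NFE2L2 measured 32.8, 36.1 and 25.9 CPM in the triptolide wells at 100 nM, 6.31, 8.37 and 11.6 at 1000 nM and 5.53, 6.75 and 5.58 at 10000 nM. The wells at 100 nM reached into the DMSO range, and those at the higher doses all lay below the lowest DMSO well of 31.5 CPM. The 36.1 CPM at 100 nM rested on 3 counts in the library of 70767 counts. As log2(Fold Change) this was -0.79 ± 0.28 (SE, adjusted p = 0.0198) at 100 nM, not a call, then -2.53 ± 0.29 (adjusted p = 3.31e-08) and -3.16 ± 0.29 (adjusted p = 5.13e-10). At the highest dose 11.2% of the control level remained.

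HMOX1, heme oxygenase, which opens the heme ring, fell further. Its wells at 100 nM read 6.96, 0 and 9.69 CPM, those at 1000 nM 1.42, 0.93 and 1.55, and those at 10000 nM 2.13, 1.09 and 1.46. All of them lay below the lowest DMSO well of 33.1 CPM, but the 0 came from the library of 70767 counts, where a count of 0 allows up to 36.1 CPM (3 counts, counting error only). The log2(Fold Change) was -2.41 ± 0.20, -4.99 ± 0.21 and -4.83 ± 0.21 at the rising doses, and the last left 3.51% of control (adjusted p = 4.15e-16). Without the 3 libraries under 10 mil the value at 100 nM was -2.37.

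OSGIN1, an oxidative stress-induced growth inhibitor, showed the deepest fall of the members at 10000 nM. It read 13.5, 12.0 and 12.1 CPM at 100 nM, 1.54, 1.98 and 1.19 at 1000 nM, and 1.38, 0.654 and 0.910 at 10000 nM. None of these wells reached the lowest DMSO well of 24.5 CPM, itself the DMSO library of 460014 counts. The 12.0 at 100 nM came from the library of 70767 counts, where 3 counts make 36.1 CPM, so that well cannot be placed against DMSO. The log2(Fold Change) went from -1.89 ± 0.23 to -5.04 ± 0.28 and -5.65 ± 0.29 (adjusted p = 7.56e-15 at 10000 nM), which is 1.99% of control.

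The ligase subunits parted. GCLC read 25.3, 0 and 29.0 CPM at 100 nM, 2.96, 5.70 and 5.66 at 1000 nM and 5.45, 4.68 and 3.72 at 10000 nM, against 52.4 in the lowest DMSO well. GCLM, its partner, read 15, 12.0 and 19.5 CPM, then 20.7, 21.2 and 25, then 18.9, 20.7 and 18.5, against a DMSO range of 23.1 to 46.1. GCLC wells were thus all below DMSO, while GCLM wells lay below its range or, in 1 well at 1000 nM, inside it. The second value of each at 100 nM came from the library of 70767 counts, where the 12.0 of GCLM was 1 count. A count of 0 there allows up to 36.1 CPM, under the lowest DMSO well for GCLC but inside the DMSO range for GCLM. That GCLM well therefore cannot be placed against DMSO. GCLC had a log2(Fold Change) of -1.34 ± 0.20, -3.78 ± 0.22 and -3.89 ± 0.20 (adjusted p = 9.72e-15 at 10000 nM). GCLM had -0.90 ± 0.20, -0.52 ± 0.16 and -0.76 ± 0.16, with adjusted p between 0.000138 and 0.0061, and never passed the limit on the fold.

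SRXN1, which repairs overoxidized peroxiredoxins, fell by about the same amount at each dose. Its wells read 91.9, 0 and 87.2 CPM at 100 nM, 80.3, 71.8 and 94.7 at 1000 nM and 98.0, 100 and 84.8 at 10000 nM. All lay below the lowest DMSO well of 184 CPM. In the well at 0, the library of 70767 counts, 6 counts were instead assigned to the readthrough gene ENSG00000270299, which had at most 0.329 CPM in the other 71 wells. Against DMSO the log2(Fold Change) was -1.90 ± 0.21, -1.93 ± 0.15 and -1.77 ± 0.14 (adjusted p = 4.19e-11 at 10000 nM), and -1.80 at 100 nM without the shallow libraries.

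On TMM scaling NQO1, TXNRD1 and SLC7A11 did not fall with these members. NQO1 read 300.2, 108 and 237 CPM at 100 nM, 210, 204 and 286 at 1000 nM and 318, 323 and 298 at 10000 nM. Only the wells at the highest dose all stood above the highest DMSO well of 233 CPM. The 108 CPM at 100 nM rested on 9 counts in the library of 70767 counts. Its log2(Fold Change) was 0.39 ± 0.16 (adjusted p = 0.0429), 0.31 ± 0.14 (adjusted p = 0.0523) and 0.70 ± 0.12 (adjusted p = 2.18e-05), all under the limit on the fold. TXNRD1 had -0.52 ± 0.16 (adjusted p = 0.00698) at 100 nM and values of -0.09 and 0.09 above it (adjusted p = 0.61 and 0.531). SLC7A11 read 109, 107 and 95.1 CPM at 10000 nM, inside the DMSO range, and its log2(Fold Change) of -0.16 ± 0.19 missed the threshold (adjusted p = 0.458).

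All of these values are relative to TMM scaling. When libraries were scaled to the 13 mitochondrially encoded mRNAs instead, the median of all genes moved by -1.65, -2.47 and -2.75 (log2) at the rising triptolide doses, and all 9 members were called lower at each dose, NQO1 included at -1.26, -2.16 and -2.07. On library sizes alone the median moved by -0.34, -0.46 and -0.53, NQO1 was at 0.10, -0.15 and 0.17, and 6, 5 and 6 members were called lower. The direction of NQO1, and of TXNRD1 at the highest dose (0.09 with TMM, -0.44 on library sizes and -2.66 on mitochondrial mRNAs), therefore turned with the scaling, while the falls of HMOX1, GCLC, OSGIN1, SRXN1 and NFE2L2 did not. Less RNA per cell and fewer cells cannot be told apart in these bulk wells.

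**Figure D3:**
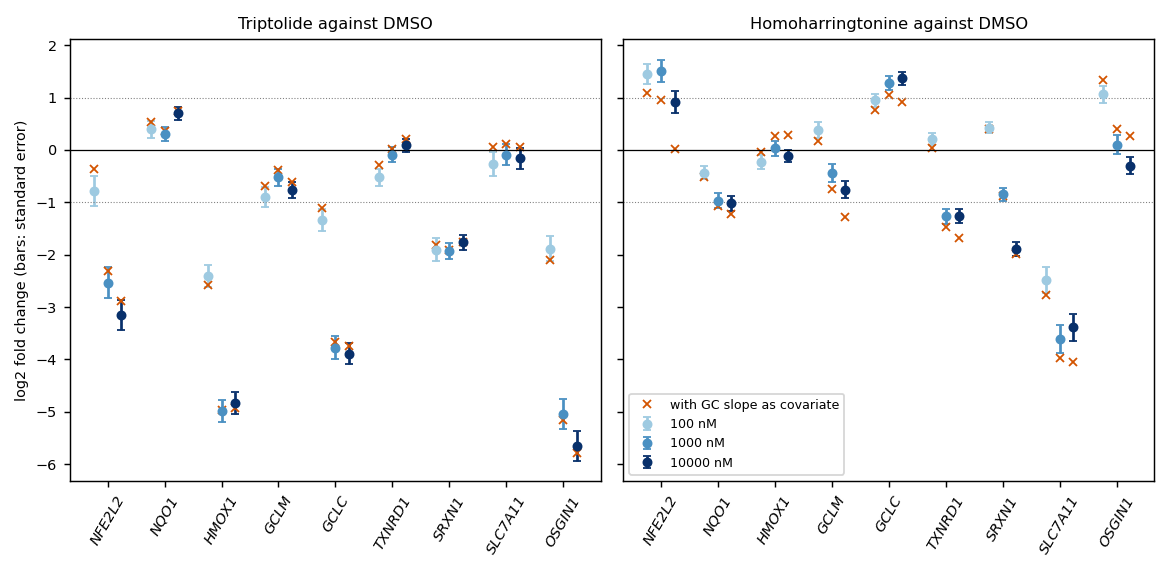
log2(Fold Change) against DMSO for each member, with SE bars, at 100, 1000 and 10000 nM (light to dark blue) of triptolide (left) and homoharringtonine (right), dotted lines at the limits of -1 and 1 and orange crosses for fits in which the library's GC slope was a covariate. The covariate moves NFE2L2 from -0.79 to -0.37 with triptolide at 100 nM and from 0.92 to 0.01 with homoharringtonine at 10000 nM.

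Homoharringtonine split the program. NFE2L2 and GCLC rose, OSGIN1 rose at the lowest dose alone, and SLC7A11, TXNRD1, SRXN1 and NQO1 fell, mainly at the upper doses. At 100 nM 2 members were called higher and 1 lower, at 1000 nM 2 and 2, and at 10000 nM 1 and 4. Over all genes tested 15.6%, 21.5% and 23.6% were higher and 19.3%, 20.9% and 23.4% lower at these doses, so the share of members called higher (at most 2 of 9) was near the background, and the 4 of 9 lower at 10000 nM was above it. The median of the members was 0.38, -0.43 and -0.76, against -0.03, -0.01 and -0.05 for all genes. With no limit on the fold 7 members passed at each dose, beside 63.4%, 68.4% and 74% of all genes.

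SLC7A11 changed most. Its wells read 24.3, 21.1 and 14.4 CPM at 100 nM, 6.92, 8.52 and 12.3 at 1000 nM and 10.6, 9.84 and 12.6 at 10000 nM. Every one lay below the lowest DMSO well of 76.3 CPM. The log2(Fold Change) was -2.49 ± 0.25 (adjusted p = 4.02e-09), -3.61 ± 0.27 (adjusted p = 2.82e-11) and -3.39 ± 0.26 (adjusted p = 2.59e-11), and 9.55% of control remained at 10000 nM. With the GC slope as a covariate these were -2.78, -3.97 and -4.06.

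SRXN1 reversed its course over the doses. It read 422, 405 and 412 CPM at 100 nM, all above the highest DMSO well of 387, then 167, 177 and 176 at 1000 nM and 85, 87.1 and 84.4 at 10000 nM, all below the lowest of 184. Its log2(Fold Change) was 0.42 ± 0.11 (adjusted p = 0.00161) and -0.84 ± 0.12 (adjusted p = 1.67e-06) at the first doses, both under the limit on the fold, and -1.89 ± 0.13 (adjusted p = 5.12e-12) at 10000 nM. TXNRD1 read 503, 471 and 425 CPM at 100 nM but 139, 181 and 190 at 1000 nM and 174, 171 and 176 at 10000 nM. The upper doses lay below all DMSO wells, whose lowest was 268, with a log2(Fold Change) of -1.26 ± 0.14 at both (adjusted p = 2.12e-08 at 10000 nM). NQO1 read 97.3, 94.3 and 91.2 CPM at 10000 nM, also below all DMSO wells, and was called at that dose only, at -1.02 ± 0.14 (adjusted p = 5.11e-07) against -0.97 ± 0.14 at 1000 nM. The call was lost without replicate 3 (-0.996), with DESeq2 (-0.98), in 1 fit of all 72 libraries (-0.99) and with at least 10 counts in every library (-0.97).

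GCLC rose at every dose. Its wells read 146, 129 and 107 CPM at 100 nM, 123, 175 and 189 at 1000 nM and 170, 174 and 182 at 10000 nM. All stood above the highest DMSO well of 96.4 CPM. Against DMSO these gave 0.95 ± 0.13, under the limit and not a call, then 1.28 ± 0.13 and 1.37 ± 0.13 (adjusted p = 6.98e-10 at 10000 nM). With the GC slope as a covariate the values were 0.77, 1.04 and 0.92, under the limit at 100 and 10000 nM. GCLM, its partner, went from 0.38 ± 0.15 at 100 nM to -0.43 ± 0.17 and -0.76 ± 0.16 and was not called, although with the GC slope it reached -1.28 at 10000 nM.

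NFE2L2 read 160, 147 and 112 CPM at 100 nM, 84.2, 152 and 207 at 1000 nM and 93.5, 90.1 and 116 at 10000 nM, all above the highest DMSO well of 80.8. Among the wells at 1000 nM the one at 84.2 CPM had a GC slope of 0.243 and the one at 207 CPM a slope of -0.315. The log2(Fold Change) was 1.45 ± 0.20 (adjusted p = 5.76e-07), 1.51 ± 0.22 (adjusted p = 1.33e-06) and 0.92 ± 0.21 (adjusted p = 0.000352), the last not a call. With the GC slope as a covariate it was 1.10, 0.96 and 0.01, and the members then split into 1 higher and 3 lower at 1000 nM and 0 higher and 5 lower at 10000 nM. OSGIN1 read 82.8, 93.7 and 121 CPM at 100 nM, above the DMSO maximum of 62.0, and overlapped DMSO or lay within it at the upper doses. Its log2(Fold Change) of 1.07 ± 0.16 at 100 nM (adjusted p = 3.14e-06) was 1.33 with the GC slope, but under the limit on library sizes alone (0.83), on mitochondrial scaling (0.94), with at least 10 counts in every library (0.95) and without replicate 3 (0.89). HMOX1 stayed at 34.1, 33.2 and 42.0 CPM, then 55.2, 41.3 and 35.6, then 40.8, 41.4 and 39.2, all inside the DMSO range, with values between -0.23 and 0.03 (adjusted p from 0.13 to 0.853).

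Set against each other at the same dose, triptolide and homoharringtonine differed for most members. Of 9 members, 1 was higher and 6 lower with triptolide at 100 nM, 3 and 5 at 1000 nM and 3 and 4 at 10000 nM, in direct fits of 3 against 3 wells. The background was 20.5% higher and 27.4% lower at 100 nM, 22.6% and 35.9% at 1000 nM and 30.2% and 37.9% at 10000 nM. NFE2L2, HMOX1, GCLC and OSGIN1 were lower with triptolide at each dose, by log2(Fold Change) values at 10000 nM of -3.99 ± 0.12, -4.63 ± 0.17, -5.17 ± 0.12 and -5.26 ± 0.18. SLC7A11 was higher with triptolide at each dose, by 2.28 ± 0.23, 3.51 ± 0.32 and 3.31 ± 0.10 (adjusted p = 2.29e-10 at 10000 nM). NQO1 and TXNRD1 were higher with triptolide at 10000 nM, by 1.80 ± 0.07 and 1.44 ± 0.07, but scaling to mitochondrial mRNAs turned both, to -0.79 and -1.15, and brought SLC7A11 to 0.72, while library sizes alone left TXNRD1 at 0.86, under the limit. SRXN1, at -2.23 ± 0.25 and -1.09 ± 0.17 at the lower doses, differed by 0.21 ± 0.08 at 10000 nM, where both compounds had lowered it. GCLM, at -1.21 ± 0.23 at 100 nM, was under the limit with the GC slope (-0.71). At 1000 nM the call of SRXN1 was lost with the GC slope (-0.94) or without any 1 homoharringtonine well (-0.93 to -0.96), and that of TXNRD1, 1.17 ± 0.25, without replicate 3 of triptolide (0.86).

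Dose trends were fitted over the 9 treated wells of each compound as the slope of log2 level per 10-fold dose. On TMM scaling OSGIN1 was the 1 member that fell with dose under both. With triptolide 4 members fell with dose, when 17.8% of all genes did: OSGIN1 at -1.90 ± 0.24, GCLC at -1.26 ± 0.23, NFE2L2 at -1.21 ± 0.16 and HMOX1 at -1.20 ± 0.27 (adjusted p from 0.000196 to 0.00565). The slope of HMOX1 missed the threshold without replicate 3 at 100 nM (-0.92, adjusted p = 0.0639). With homoharringtonine 6 members fell with dose, when 22.9% of all genes did: SRXN1 at -1.17 ± 0.05, TXNRD1 at -0.74 ± 0.14, OSGIN1 at -0.70 ± 0.10, GCLM at -0.58 ± 0.11, SLC7A11 at -0.46 ± 0.16 and NQO1 at -0.30 ± 0.07 (adjusted p from 4.06e-07 to 0.0326). The slope of SLC7A11 lost its call on library sizes alone (-0.36, adjusted p = 0.0771) and without replicate 1 or 2 at 100 nM or at 10000 nM, with values from -0.34 to -0.49 and adjusted p from 0.0572 to 0.117. The mean GC slope of the homoharringtonine wells was -0.022, -0.071 and -0.253 at the rising doses, and its part in these trends was not tested. On mitochondrial scaling all 9 members fell with triptolide dose, and all but GCLC and HMOX1 were also called as falling with homoharringtonine dose. The difference between the slopes of the compounds passed for 8 of 9 members, against 40.4% of all genes. It was negative (lower slope with triptolide) for GCLC, HMOX1, OSGIN1 and NFE2L2 and positive for SRXN1, TXNRD1, GCLM and NQO1. SLC7A11 missed the threshold at 0.52 ± 0.21 (adjusted p = 0.056). On library sizes alone the differences of GCLM and NQO1 also missed it (adjusted p = 0.0505 and 0.108), and mitochondrial scaling brought that of GCLM to 0.17 (adjusted p = 0.402) and that of NQO1 to -0.015. The share of all genes was 19% for positive and 21.4% for negative differences, beside 4 members each.

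The other 4 compounds left the program mostly at control level. The 1 call among the 108 tests of these members and compounds was SLC7A11 with pyrazolanthrone at 10000 nM. Its wells read 340, 282 and 258 CPM, all above the highest DMSO well of 186, whereas the wells at 100 and 1000 nM read 89.4 to 142 CPM. It rose by 1.34 ± 0.18 (log2, adjusted p = 2.27e-05), when 0.589% of all genes tested were called higher and 0.923%, 0% and 1.16% in either direction at the rising doses. It was 1.07 with the GC slope, 1.04 on mitochondrial scaling and 1.33 with DESeq2. NQO1 and TXNRD1 also stood above every DMSO well at that dose, with 0.44 ± 0.12 and 0.42 ± 0.12 (adjusted p = 0.0267 and 0.0366), under the limit on the fold, when 4.77%, 0% and 7.65% of all genes passed without that limit at the rising doses. At 100 and 1000 nM 0 members were called by edgeR or DESeq2, with 1 and 0 at an unadjusted p under 0.05.

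**Figure D4:**
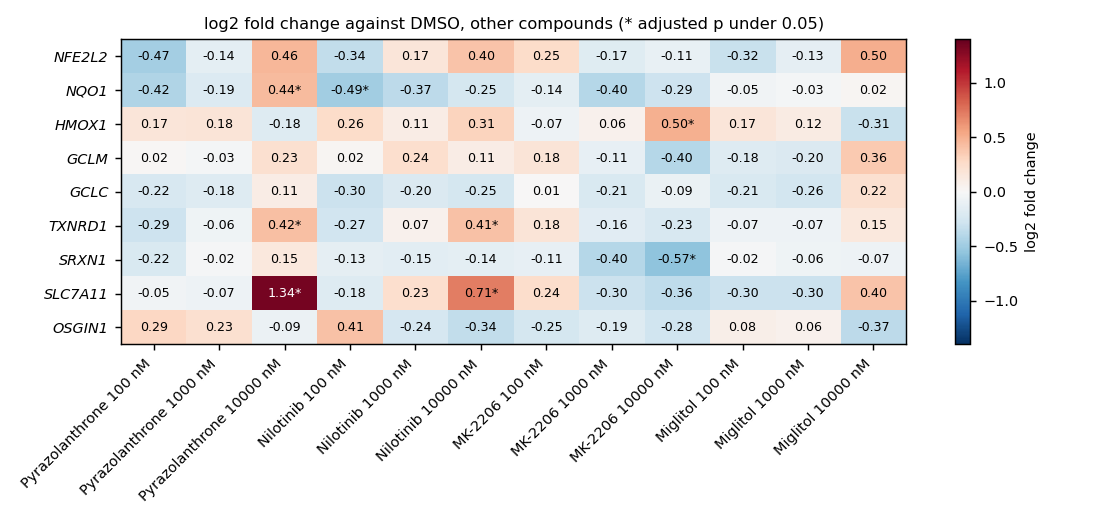
log2(Fold Change) against DMSO of the 9 members (rows) for pyrazolanthrone, nilotinib, MK-2206 and miglitol at 3 doses (columns), with the value printed in each cell, red for higher and blue for lower, and asterisks where the adjusted p was under 0.05. SLC7A11 with pyrazolanthrone at 10000 nM, at 1.34, is the 1 cell past the limits of -1 and 1.

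With nilotinib, edgeR called 0 of 9 members at each dose, against 1.48%, 1.13% and 3.12% of all genes, and DESeq2 called 0 as well, with 2, 1 and 4 members at an unadjusted p under 0.05. SLC7A11 read 210, 191 and 153 CPM at 10000 nM, overlapping the DMSO range, for a log2(Fold Change) of 0.71 ± 0.19 (adjusted p = 0.011). TXNRD1 at that dose had 0.41 ± 0.12 (adjusted p = 0.0279) with all wells above DMSO. With no limit on the fold 9.08%, 3.95% and 14.4% of all genes passed at the rising doses, and at 100 nM NQO1 was the 1 member, at -0.49 ± 0.14 (adjusted p = 0.0351). With MK-2206, 0 members were called by edgeR or DESeq2 at any dose, against 0.0054%, 0.286% and 0.711% of all genes, and 0, 2 and 4 had an unadjusted p under 0.05. With no limit on the fold 2 members passed at 10000 nM, when 0.0648%, 1.52% and 3.15% of all genes did at the rising doses, SRXN1 at -0.57 ± 0.12 (adjusted p = 0.00712) and HMOX1 at 0.50 ± 0.11 (adjusted p = 0.0116), with HMOX1 wells from 55.6 to 65.8 CPM, above the DMSO wells, whose highest also rounds to 55.6.

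Miglitol gave no call with edgeR or DESeq2 at any dose, as for all genes tested (0%). At 10000 nM 5 of the 9 members had an unadjusted p under 0.05, the highest value being 0.50 for NFE2L2 and the lowest -0.37 for OSGIN1, and the lowest adjusted p was 0.219. The GC slopes of these 3 wells were -0.134 to -0.0471, inside the DMSO range. A fit with the slope as a covariate also gave no call, and the part of the slope in these values is not given here. For each member the miglitol wells at that dose overlapped the DMSO range.

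The partners and other genes of the pathway were counted in 7 lists of 61 genes in all. Of these genes 60 were tested against DMSO for triptolide. At 10000 nM 20 were higher and 14 lower with triptolide, against 16.2% and 30.2% of all genes, and on mitochondrial scaling 0 were higher and 60 lower, on library sizes 1 and 16, so each triptolide rise named here is a rise relative to TMM. With homoharringtonine 12 of 61 were higher and 14 lower, near the shares of 23.6% and 23.4% over all genes.

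Among the regulators, 7 of 11 fell with triptolide at 10000 nM and 0 rose (median -1.61, against -0.17 over all genes). At 100 nM 3 of 11 were higher and 1 lower (median -0.39, against -0.16), beside 11.4% and 20.9% of all genes. The counts were 2 and 2 on library sizes alone and 0 and 8 on mitochondrial scaling. Named after their values were seen, the regulators called at 100 nM with TMM were NFE2L3 at 2.32 ± 0.39, MAFF at 1.84 ± 0.30, NFE2L1 at 1.17 ± 0.08 and KEAP1 at -1.20 ± 0.18. At 10000 nM KEAP1, the adaptor that marks NRF2 for degradation, had a log2(Fold Change) of -3.22 ± 0.19 and BACH1, the repressor that competes at the elements, -2.57 ± 0.25, so the genes for NRF2 and for both of its restraints were low together. With homoharringtonine 3 regulators rose and 2 fell (median 0.28, against -0.05 over all genes). MAFF, a small MAF partner, rose from 23.8 ± 17.4 CPM (SD, n = 18) in DMSO to 632 ± 41.3 (n = 3), a log2(Fold Change) of 4.89 ± 0.23, and SQSTM1, the autophagy adaptor that binds KEAP1, by 1.81 ± 0.11. KEAP1 fell, to -1.54 ± 0.14, as did NFE2L1, a relative of NFE2L2, to -2.87 ± 0.09.

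In the thioredoxin and peroxiredoxin list, 7 of 9 were higher with triptolide at 10000 nM (PRDX2 1.47 ± 0.11 and TXN 1.46 ± 0.23), and the list medians were 1.23 with triptolide and -0.28 with homoharringtonine. TXNIP, which binds and blocks thioredoxin, was the 1 gene of the list lower, at -5.94 ± 0.26, and went up with homoharringtonine by 3.15 ± 0.11, when PRDX3 was lower, at -1.01 ± 0.17. In the glutathione list 5 of 13 were higher and 1 lower with triptolide, led by MGST1 at 1.61 ± 0.21 and GSS at 1.13 ± 0.10 and by CHAC1, a glutathione-degrading enzyme, at -7.83 ± 0.33. The list medians were 0.52 with triptolide and -0.95 with homoharringtonine, where 2 rose and 5 fell. SLC3A2, the heavy chain that pairs with SLC7A11 in the cystine importer, rose by 1.39 ± 0.08 and GGT1 by 1.79 ± 0.24, whereas GPX8 was at -3.60 ± 0.26 and CHAC1 at -3.28 ± 0.20. The genes for the importer's chains thus moved in opposite directions.

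ATF4, which also drives SLC7A11 under amino acid stress, and its targets were lower in 5 of 6 cases with triptolide at 10000 nM, with CHAC1 as above and SESN2 at -6.41 ± 0.23 (median -4.48). With homoharringtonine 2 were higher, DDIT3 at 2.86 ± 0.11 and ATF4 itself at 1.42 ± 0.10, and 3 lower, CHAC1 and TRIB3 at -2.53 ± 0.12 among them (median -0.57). At 10000 nM of pyrazolanthrone, where SLC7A11 was high, 3 of the 6 genes were higher, with ASNS at 1.66 and CHAC1 at 1.25, and with nilotinib 4 of 6 were, with TRIB3 at 1.16 and ASNS at 1.11. Those counts stand beside 0.589% and 2.41% of all genes higher, and on mitochondrial scaling the companion genes called higher with these compounds went from 4 to 1 and from 6 to 0.

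Among NADPH-supplying enzymes TALDO1 was higher with triptolide at 10000 nM (1.21 ± 0.13), and IDH1 was lower with homoharringtonine (-1.14 ± 0.15). Of the detoxification genes 3 of 9 tested were higher and 1 lower with triptolide (AKR1B10 1.51 ± 0.17, AKR1B1 1.4 ± 0.09 and CBR1 -1.14 ± 0.14), and 4 of 10 higher and 1 lower with homoharringtonine (ABCC2 2.71 ± 0.20, AKR1C2 2.82 ± 0.48 and CBR1 -1.50 ± 0.13). AKR1C2 shares sequence with its paralogs, so its value is uncertain. In the iron and heme list 3 of 7 were higher with triptolide (TFRC 1.29 ± 0.20 and FTH1 1.24 ± 0.10, the latter with many processed copies in the genome), and 2 of 7 lower with homoharringtonine (SLC48A1 -1.87 ± 0.11 and BLVRA, a step after HMOX1 in heme breakdown, -1.75 ± 0.09).

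**Figure D5:**
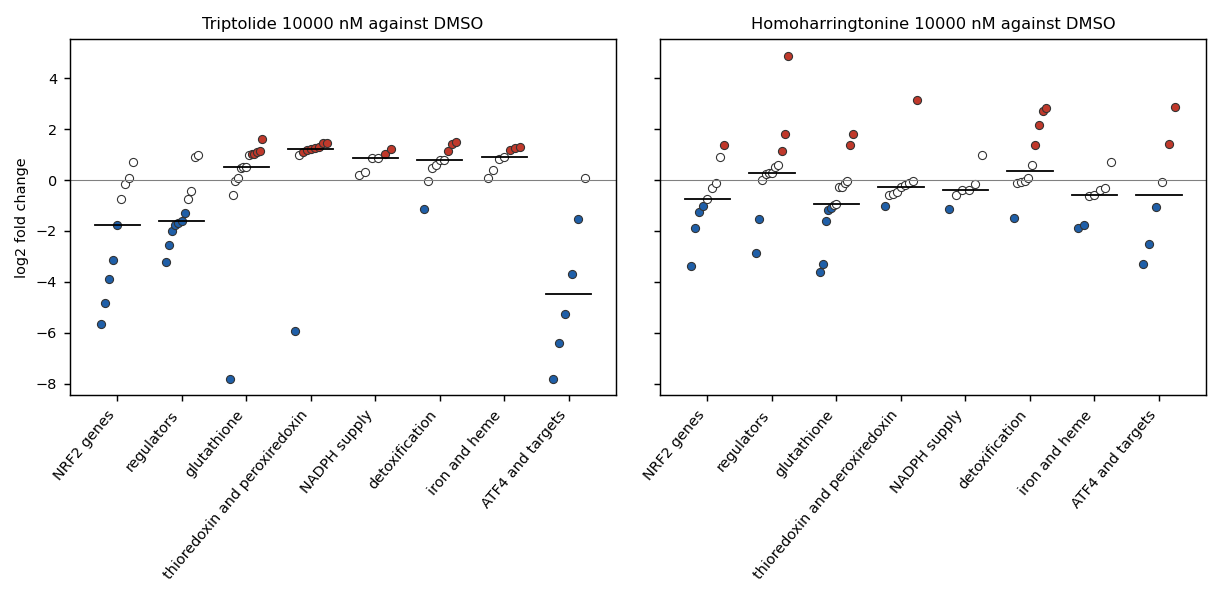
log2(Fold Change) against DMSO at 10000 nM of triptolide (left) and homoharringtonine (right) for the 9 NRF2 genes and 7 companion lists, with 1 circle per gene, red where called higher, blue where called lower, open where not called, and bars at list medians. The regulators and the ATF4 list lie low with triptolide, with the lowest values for CHAC1, SESN2 and TXNIP, and MAFF is the highest circle with homoharringtonine at 4.89.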

How the data were processed

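Population RNA-seq wells of U2OS (24-well plates, poly(A) stranded libraries) were grouped by the labels' compound and dose. Where the methods name 1 nM for the middle dose, the labels' 1000 nM was used. The authors ran RSEM; its version, the annotation and the strand setting are not given in the sources used here, and the submitters' processing notes also name GRCh38, HTSeq and DESeq2. The deposited expected counts are RSEM's estimated reads per gene, not normalized, and TPM, also deposited, had been scaled by the authors for length and library.

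After rounding to whole counts, edgeR 4.0.16 in R 4.3.3 was used (TMM, filterByExpr with a minimum count of 10, glmQLFit, glmQLFTest, Benjamini-Hochberg over all genes tested). Each compound and dose was compared with all 18 DMSO wells. Triptolide was compared with homoharringtonine, and trends were fitted on log10 dose. Each SE of a fold change or slope is its absolute value divided by the square root of edgeR's F statistic, and was not estimated separately. Comparisons with DMSO share those wells and are not independent. DESeq2 1.42.0, library sizes, mitochondrial mRNA scaling, other filters, left-out wells, a replicate block and 1 fit of all 72 libraries were alternatives. In comparisons with DMSO, the replicate block used only DMSO replicates 1 to 3. The GC slope, from 14700 genes of at least 1 TPM, was added as a covariate after seeing the data. It was not run in trends.

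Members and lists were chosen with earlier results of these data known. All members were named, and from each list at most the 2 largest values in each direction among genes called at 10000 nM. The result of 1 such gene is not reported here. On simulated counts for triptolide at 10000 nM against DMSO, 200 of 200 genes changed by a log2 of 2 were recovered among 15688, with 6 false calls. For triptolide against homoharringtonine at 10000 nM, 197 of 200 were recovered, with 7 false calls. The changed genes were drawn from the higher expressed ones, with as many rises as falls. The simulation thus cannot test the scaling in the real comparison with DMSO, where 16.2% of genes were called higher and 30.2% lower. Counting error sets the precision of shallow libraries, and intervals and floors cover counting error only.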

Additional observations from a re-analysis of the deposited data

Results flagged for a closer look

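Slopes of log2 level per 10-fold dose differed between triptolide and homoharringtonine for 8 members, by the interaction term of edgeR's quasi-likelihood test over 18 wells. As triptolide minus homoharringtonine, the difference was -1.44 for GCLC (adjusted p = 0.00018), -1.23 for HMOX1 (adjusted p = 0.00142), -1.21 for OSGIN1 (adjusted p = 0.000936) and -0.89 for NFE2L2 (adjusted p = 0.00312). It was 1.25 for SRXN1 (adjusted p = 1e-05), 1.06 for TXNRD1 (adjusted p = 0.000232), 0.63 for GCLM (adjusted p = 0.00616) and 0.47 for NQO1 (adjusted p = 0.0116). GCLM missed the threshold on library sizes alone (adjusted p = 0.0505) and on mitochondrial scaling (0.17, adjusted p = 0.402), and NQO1 on library sizes alone (adjusted p = 0.108), with its sign turned on mitochondrial scaling (-0.015). The test for a single outlying well was not made, since groups held 3 or 18 wells.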

How the results depend on the processing

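This tally covers only the 67 results in which a single member was called. Of 968 alternative values for them, 930 kept their direction and side of the threshold, 33 kept the direction but lost the call and 5 reversed. Where a filter left a member untested, as with 10 counts required in every library, no value entered the tally. Calls that went missing in that way are not among the 33. Values that were not calls are outside it, among them NQO1 and TXNRD1 with triptolide against DMSO, whose direction also turned with the scaling. The 5 reversals in the tally came with mitochondrial scaling: NQO1 in triptolide against homoharringtonine at 1000 nM (-1.11) and 10000 nM (-0.79) and in the trend difference (-0.015), and TXNRD1 at 1000 nM (-1.20) and 10000 nM (-1.15). Of calls summed over 3 doses, that scaling gave 27 for members with triptolide in place of 14, 1 with nilotinib (OSGIN1) in place of 0, 156 for companion genes with triptolide in place of 80, and 9 triptolide dose trends in place of 4. Library sizes alone gave 46 companion calls with triptolide. Requiring 10 counts in every library gave 45, with 14 for triptolide against homoharringtonine in place of 22, 0 triptolide trends and 1 trend difference in place of 8, because the library of 70767 counts left 1 member in those trend fits. With no limit on the fold, calls were 21 for homoharringtonine, 3 for pyrazolanthrone, 3 for nilotinib and 2 for MK-2206, and 137 and 122 for companion genes with triptolide and homoharringtonine. Leaving out 1 treated well gave 14 to 15 for triptolide, 11 to 13 for homoharringtonine, 1 to 1 for pyrazolanthrone, 0 to 0 for nilotinib, miglitol and MK-2206, 21 to 22 between the compounds, 3 to 5 and 5 to 7 for their trends, 8 to 9 for the trend difference, and 76 to 83 and 73 to 77 for companion genes. SRXN1 at 1000 nM between the compounds fell under the limit on the fold without any 1 homoharringtonine well (-0.93 to -0.96), and TXNRD1 without replicate 3 of triptolide (0.86). The cause of these changes was not tested unless named.

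Replicate numbers did not pair wells: deviations from group means correlated at -0.0514 on average between compound and DMSO wells with equal numbers and at 0.0241 with unequal ones. In fits with the replicate number as a block, comparisons with DMSO used only DMSO replicates 1 to 3, so the controls changed as well. Member calls were then 14 for triptolide, 13 for homoharringtonine, 1 for pyrazolanthrone, 1 for nilotinib (SLC7A11, 1.08) and 0 for miglitol and MK-2206. There were 22 calls between the compounds, 4 and 5 trends and 8 trend differences, with 67 and 76 companion calls. The block and the fewer controls were not tested separately.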

Other observations

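Over the 19 group means (log2(CPM + 1)), the 9 members did not share 1 pattern. Pearson's r between members, given as a description over groups that share the cell line and with 6 of the 19 groups carrying the large responses to triptolide and homoharringtonine, was highest for HMOX1 with OSGIN1 (0.933), NFE2L2 with GCLC (0.920) and HMOX1 with GCLC (0.902), and lowest for NQO1 with GCLC (-0.717). SLC7A11 and TXNRD1 had r = 0.770. The protein-coding genes with patterns most like NFE2L2, among 9383 genes at 10 CPM or more on average, were ZKSCAN8 (0.991), CCNT1 (0.988) and MED6 (0.987). For HMOX1 they were SOX13, IFFO2 and SETD1A (0.989, 0.989 and 0.988), and for NQO1, C6orf89, ATRAID and ERLIN1 (0.931, 0.929 and 0.922).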
